A study of Mus musculus with 16 samples.

Results

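The comparison is between tumours grown from B16F10-TDMa cells that carried a guide against Nlrc5 and tumours from the same line that carried a scramble guide. It holds 8 of the 16 samples of the series, 4 tumours per guide, taken by their labels. Of 14933 genes listed for the tumours, 13385 were tested, those whose mean normalised count over the 8 samples was at least 10. Such a count is the number of reads of a gene after division by the size factor of its sample. The other samples are B16F10-TDM and B16F10-TDMa cells in culture with the same guides, 2 per guide and line. They serve here only to say which genes were listed for cultured cells, and at which level in TDMa culture.

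B16F10 is a mouse melanoma line of C57BL/6 origin, and TDMa names a derivative of it. Both tumour groups came from TDMa cells that had been transduced with an sgRNA, the RNA that directs a Cas9-type protein to a DNA site, so they shared the line and the transduction and differed in the guide: sgScramble, with no stated target, or sgNlrc5. What TDM and TDMa stand for, the mouse strain, age and sex of the hosts, the site of injection and the day of collection are not given in the sources used here. Nor is it given whether each tumour came from a different mouse, so the p-values speak only of the spread among these samples, which may be technical. The labels name 1 guide per group, so an effect of the targeted gene cannot be told apart from other differences between the 2 transduced cell populations. By its title, the series is about activating Nlrc5 by removing DNA methylation, and about cancer immunogenicity through MHC class I.

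Nlrc5 encodes a transactivator that is recruited to the promoters of MHC class I genes, B2m, Tap1 and Psmb9. It does not bind DNA itself but docks on a complex of RFX, CREB-family and NF-Y proteins over the X and Y boxes, the same platform that CIITA uses at MHC class II genes. Class I molecules present peptides to CD8 T cells, and melanoma cells with little class I are poorly seen by them. A tumour sampled whole also holds T cells, macrophages, vessels and stroma of the host. A higher level of a marker in such bulk RNA cannot tell more cells of a type from more RNA per cell.

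Read counts recovered from the deposited values summed to between 12663647 and 16390886 per tumour over the listed genes. The 10 most abundant genes took 9.34% to 14.1% of them. The tumours carried the melanocyte genes that their label implies: Dct, a pigment enzyme, had mean normalised counts of 453600.0 and 504480.0 in the sgScramble and sgNlrc5 tumours, and Pmel, the fibril protein of melanosomes, 122574 and 182794. Genes encoded in mitochondrial DNA took 2.65%, 3.50%, 5.12% and 3.73% of counts in sgScramble tumours 1 to 4 and 7.11%, 5.66%, 3.11% and 2.95% in sgNlrc5 tumours 1 to 4, so the groups overlapped. In all, 5268 genes passed the test (39.4%), 2635 of them higher with sgNlrc5 (19.7%) and 2633 lower (19.7%), at an adjusted p of 0.05 in limma over all genes tested. The median log2 fold change over all tested genes was -0.01. Here and below a fold change is sgNlrc5 minus sgScramble on the log2(normalised count + 1) scale, on which changes of low genes look smaller than they are. The error given with it is a standard error, that given with a mean is an SD over 4 tumours, and values in a row are tumours 1 to 4.

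Nlrc5 itself (ENSMUSG00000074151) was higher in the tumours labelled sgNlrc5. Its normalised counts were 837, 257, 559 and 656 in the sgScramble tumours and 4381, 3434, 3655 and 4195 in the sgNlrc5 tumours. Every sgNlrc5 tumour lay above every sgScramble tumour, and sgScramble tumour 2 was the lowest. The means went from 577 ± 243 to 3916 ± 445, and the log2 fold change was 2.88 ± 0.28 (adjusted p = 3.15e-05, limma).

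The promoters of 4 class I genes are shown. They were chosen because each holds the letters TGACG and ATTGG, cores of the X2 and Y boxes, with exactly 20 bases between them on the coding strand. Each window is 300 bases, from 250 before to 50 after the annotated start, from RefSeq on build GRCm38.p6, and capitals mark the 2 cores. The windows are chr17:35262844-35263143 on the plus strand for H2-D1, chr17:34000298-34000597 on the minus strand for H2-K1, chr2:122147437-122147736 on the plus strand for B2m and chr17:37269984-37270283 on the plus strand for H2-M3.
H2-D1: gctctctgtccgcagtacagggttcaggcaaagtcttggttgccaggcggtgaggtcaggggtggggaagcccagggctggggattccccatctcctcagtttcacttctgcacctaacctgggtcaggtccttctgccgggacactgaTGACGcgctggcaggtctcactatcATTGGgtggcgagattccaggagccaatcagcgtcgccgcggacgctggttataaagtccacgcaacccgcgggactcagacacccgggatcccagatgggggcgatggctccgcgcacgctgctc
H2-K1: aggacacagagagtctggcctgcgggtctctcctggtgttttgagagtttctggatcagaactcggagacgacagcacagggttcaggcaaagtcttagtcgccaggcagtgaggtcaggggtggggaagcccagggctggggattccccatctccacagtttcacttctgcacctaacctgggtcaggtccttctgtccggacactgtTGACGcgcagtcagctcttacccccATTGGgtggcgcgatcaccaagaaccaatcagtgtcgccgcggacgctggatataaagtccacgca
B2m: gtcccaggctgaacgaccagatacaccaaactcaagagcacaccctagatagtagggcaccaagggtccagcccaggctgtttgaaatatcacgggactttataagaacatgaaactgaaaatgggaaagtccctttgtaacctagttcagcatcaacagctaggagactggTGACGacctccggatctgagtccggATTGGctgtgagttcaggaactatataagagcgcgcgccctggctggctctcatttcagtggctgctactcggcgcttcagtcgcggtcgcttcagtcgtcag
H2-M3: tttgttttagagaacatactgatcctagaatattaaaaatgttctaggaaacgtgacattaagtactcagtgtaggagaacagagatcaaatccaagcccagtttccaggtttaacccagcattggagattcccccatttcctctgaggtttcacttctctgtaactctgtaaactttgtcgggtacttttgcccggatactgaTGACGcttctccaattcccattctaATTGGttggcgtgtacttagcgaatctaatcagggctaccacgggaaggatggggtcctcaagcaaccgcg

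The first core began 101, 41, 78 and 46 bases before the start in H2-D1, H2-K1, B2m and H2-M3. The spacing was noticed in these 4 sequences and then searched on both strands of all promoters in the table, as TGACGNNNNNNNNNNNNNNNNNNNNATTGG. It was found in 31 of 32851 promoters (0.0944%), those of 27 genes. Of these genes 18 were tested, and 7 were higher and 5 lower with sgNlrc5, beside 19.7% and 19.7% of all tested genes. Of the 7, 4 were the genes shown, in which the spacing was noticed. Those 4 were higher, so the count of 7 was partly set in advance and is no test of the spacing. The remaining 3 higher genes, Nfe2l1, Tecpr1 and Trim26, had fold changes of 0.42, 0.33 and 0.53, and the 5 lower genes, Nasp, Per1, Hnrnpf, Hspa14 and Ghitm, of -0.66, -0.62, -0.60, -0.33 and -0.22, so the spacing alone did not go with 1 direction. The calls of Ghitm, Tecpr1 and Hspa14 were lost in 9, 2 and 1 of 18 alternative settings. Of 11 class I heavy chain and B2m genes with a promoter in the table, 4 held the spacing, those shown. The promoters of H2-T23, H2-Q7 and H2-T22, which rose by 4.64, 2.84 and 2.26, did not hold it. That of H2-Q7 held both cores in the same order on the coding strand, but with fewer than 20 bases between them. A match is a description of letters, not a binding site.

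Class I heavy chains and B2m rose across nearly the whole family. Of 15 tested members of the list, 14 were higher (93.3%) and none lower, beside 19.7% and 19.7% of all tested genes. The median log2 fold change was 2.37 beside -0.01 for all genes. The groups of 13 members did not overlap, beside 18.1% of all tested genes that were higher without overlap. Of the 13 members with a mean of at least 10 in both groups, 12 were higher. The authors' counting of reads shared between the near-identical H2 genes is not given in the sources used here, so values of single H2 genes, above all H2-Q6, H2-Q7 and H2-K2, are uncertain.

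H2-D1 (ENSMUSG00000073411), the classical D heavy chain, had normalised counts of 972, 911, 1395 and 1732 in the sgScramble tumours and 30971, 31899.5, 27621 and 29496 in the sgNlrc5 tumours. All sgNlrc5 tumours stood far above all sgScramble tumours, and the fold change of 4.63 ± 0.17 (adjusted p = 7.37e-08) had the smallest p of the list. H2-K1 (ENSMUSG00000061232), the classical K heavy chain, had 652, 556, 684 and 1179 in the sgScramble tumours and 5111, 3277, 3736 and 3139 in the sgNlrc5 tumours. The groups did not overlap, sgScramble tumour 4 was the highest of its group, and the rise was 2.35 ± 0.21 (adjusted p = 2.46e-05), so the K gene rose less than the D gene. That difference between the 2 genes was not tested. B2m (ENSMUSG00000060802), the light chain that every class I heavy chain needs, had 32739.7, 15309, 19661 and 24175 in the sgScramble tumours and 90037, 99657, 69372 and 86192 in the sgNlrc5 tumours. It was abundant in both groups, with no overlap, and rose by 1.95 ± 0.22 (adjusted p = 6.71e-05).

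The nonclassical heavy chains rose too. H2-T23 (ENSMUSG00000067212), which encodes Qa-1, the ligand of the CD94/NKG2A receptor, had normalised counts of 448, 122, 391 and 899 in the sgScramble tumours and 10126, 7399, 8629 and 11789.5 in the sgNlrc5 tumours. It was lowest in sgScramble tumour 2 and highest in sgNlrc5 tumour 4, and its rise of 4.64 ± 0.44 (adjusted p = 3e-05) was as large as that of H2-D1. H2-M3 (ENSMUSG00000016206), which presents N-formylated peptides, had 375, 120.3, 281 and 228 in the sgScramble tumours and 1711, 1378, 1247 and 1291 in the sgNlrc5 tumours. H2-T22 (ENSMUSG00000056116), recognised by some gamma delta T cells, had 3591, 1572, 2652 and 3971 in the sgScramble tumours and 14432, 12601, 11299 and 15294 in the sgNlrc5 tumours. Neither gene had overlapping groups, and the rises were 2.58 ± 0.27 and 2.26 ± 0.24 (adjusted p = 4.5e-05 and 4.6e-05).

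Of the genes of the Q region, H2-Q7 and H2-Q6, which encode Qa-2 antigens, went from 42.3 ± 16.9 to 296 ± 21.3 normalised counts, a fold change of 2.84 ± 0.22, and from 19 ± 12.7 to 119.8 ± 19.2 (2.86 ± 0.45), and H2-Q4 from 74.6 ± 31.1 to 491 ± 99 (2.77 ± 0.27). H2-T10 and H2-T24 rose by 2.37 ± 0.21 and 1.52 ± 0.29. The low genes H2-K2 and H2-M2 rose from means of 5.39 and 6.33 normalised counts to 22.2 and 29.3, by 2.06 ± 0.54 and 2.55 ± 0.75, and the call of H2-M2 was lost without sgNlrc5 replicate 2 (adjusted p = 0.0617). Mr1 (ENSMUSG00000026471), which presents vitamin metabolites to MAIT cells and lies apart from the MHC, had 637, 595, 620.3 and 569.8 in the sgScramble tumours and 672, 901, 744 and 948 in the sgNlrc5 tumours. Its groups did not overlap, but the rise was 0.42 ± 0.11 (adjusted p = 0.0121), the smallest called on the list. Cd1d1 (ENSMUSG00000028076), which presents lipids to NKT cells, had 47.1, 48.7, 40.8 and 64.4 in the sgScramble tumours and 44.1, 26.8, 26.2 and 38.2 in the sgNlrc5 tumours, with overlap, and did not pass (fold change -0.57 ± 0.25, adjusted p = 0.0866).

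**Figure D1:**
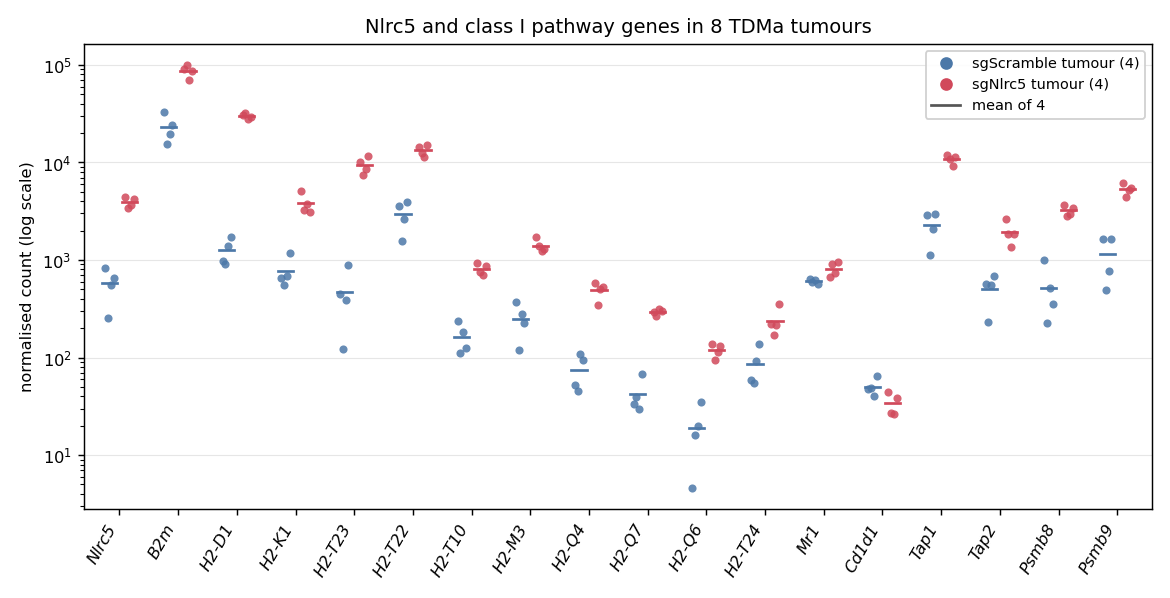
Normalised counts (log scale) of Nlrc5, class I heavy chains, B2m and 4 antigen processing genes in the 4 sgScramble and 4 sgNlrc5 tumours, with a point per tumour and a bar at the group mean. H2-D1 and H2-T23 show the widest gap between groups, Mr1 a narrow one, and the points of Cd1d1 overlap.

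Genes that load peptides on class I moved in part. Of 16 tested members of this list, 9 were higher (56.2%), 1 was lower (6.25%) and 6 did not pass, with a median of 0.61. Over all tested genes, 19.7% were higher and 19.7% lower. Tap1 (ENSMUSG00000037321), a subunit of the transporter that brings peptides into the endoplasmic reticulum, had normalised counts of 2919, 1125, 2093 and 2987 in the sgScramble tumours and 11929, 10798, 9267 and 11453 in the sgNlrc5 tumours. The immunoproteasome subunit genes Psmb8 (ENSMUSG00000024338) and Psmb9 (ENSMUSG00000096727) went from 522 ± 338 to 3226 ± 391 and from 1141 ± 599 to 5309.5 ± 728. None of these 3 genes had overlapping groups, and their rises were 2.34 ± 0.25, 2.83 ± 0.33 and 2.39 ± 0.32 (adjusted p = 5.1e-05, 0.000102 and 0.000229). Tap2, the partner of Tap1, rose by 2.0 ± 0.29. Markers of host immune cells moved with the class I pathway: 21 of 23 macrophage and monocyte markers were higher, with summed normalised counts of 5576 to 9306 in the sgScramble tumours and 18390.0 to 25022 in the sgNlrc5 tumours, and the 22 tested T cell markers had sums of 535 to 695 in the sgScramble tumours and 1217 to 2677 in the sgNlrc5 tumours. Both sums include genes that were also listed for cultured TDMa cells, among them Cd68 and Tcf7. The part of host immune cells in the class I rise was not tested.

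Genes were then set apart by whether they had been listed for the cultured melanoma cells. Of 930 tested genes listed in neither culture table, 572 were higher with sgNlrc5 (61.5%) and 15 lower (1.61%), with a median fold change of 1.43. Of 12240 tested genes listed in the TDMa culture table, 1973 were higher (16.1%) and 2605 lower (21.3%), with a median of -0.05. The 215 tested genes listed for TDM culture and not TDMa culture held 90 higher (41.9%) and 13 lower genes (6.05%). The lean of the TDMa-listed calls turned with the scaling: 43.1% of them were higher as deposited, and 51.4% where size factors were set over TDMa-listed genes alone. For genes listed in neither culture table, the share was 97.4% and 97.7%.

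Genes in neither culture table took 0.346%, 0.289%, 0.375% and 0.550% of counts in sgScramble tumours 1 to 4 and 1.44%, 0.997%, 1.12% and 1.27% in sgNlrc5 tumours 1 to 4, with no overlap. Low genes that pass the filter through 1 group only must differ, so the 930 were split: 644 had a mean of at least 10 in both groups, 262 in the sgNlrc5 tumours only and 24 in the sgScramble tumours only. Of the 644, 403 were higher and 9 lower. Genes given below with a mean under 10 in the sgScramble tumours, such as Igkc, Atp2a1 and Pmaip1, also passed the filter through the sgNlrc5 tumours only. Of 1700 genes in neither culture table that were listed for the tumours, 770 did not reach the filter and were not tested. Listing is a matter of level, not proof of host origin: H2-K1, H2-T23 and Psmb8 were in neither culture table.

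Among the TDMa-listed genes, the lean also followed the level in TDMa culture. Of 458 genes with a mean below 10 normalised counts in TDMa culture, 23.1% were higher and 4.15% lower. Between 10 and 100 the shares were 19% and 6.8% of 2294 genes, and between 100 and 1000 they were 16.5% and 21.4% of 6231 genes. At 1000 or more, 12.3% of 3257 genes were higher and 33.7% lower. Genes that cultured TDMa cells express strongly were thus more often lower, and those they express weakly more often higher; 21 of 23 macrophage markers rose in the same tumours, and their part in this gradient was not tested.

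**Figure D2:**
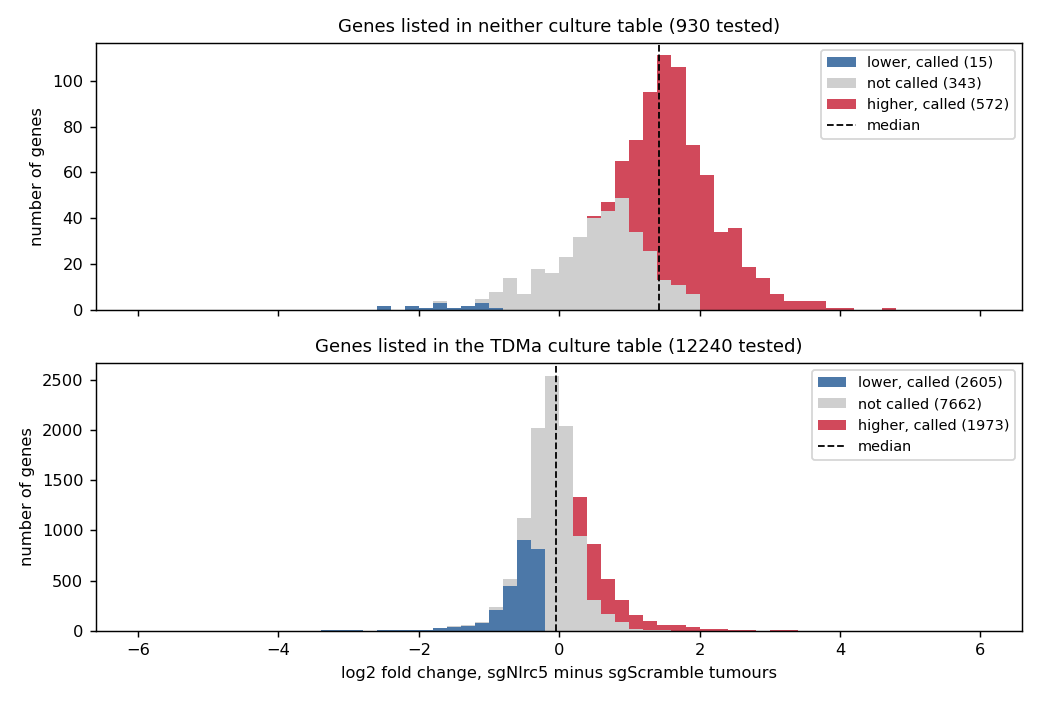
Number of genes (y) by log2 fold change, sgNlrc5 minus sgScramble (x), for genes listed in neither culture table (upper) and in the TDMa culture table (lower), coloured by call, with a dashed line at the median. The upper distribution is centred at 1.43 and the lower at -0.05.

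T cell genes were mostly low in the sgScramble tumours and higher with sgNlrc5. Of 22 tested members of the T cell receptor complex and coreceptor list, 18 of them in neither culture table, 17 had a mean of at least 10 normalised counts in the sgNlrc5 tumours only, so they entered the test through the group where they were high, and 16 of these were called higher. Of the 5 with such a mean in both groups, 4 were higher (Lat, Cd8a, Cd8b1 and Lck) and none lower, with a median of 2.16. Cd8a (ENSMUSG00000053977), the coreceptor of class I restricted T cells, had normalised counts of 16.1, 12.4, 17.9 and 11.5 in the sgScramble tumours and 317, 173, 97.6 and 111 in the sgNlrc5 tumours. Trac (ENSMUSG00000076928), the alpha chain constant region of the T cell receptor, had 11.5, 4.77, 1.99 and 7.06 in the sgScramble tumours and 142, 79.4, 27.1 and 59.3 in the sgNlrc5 tumours, while Cd3g (ENSMUSG00000002033), of the CD3 signalling complex, had 14.9, 11.5, 7.95 and 3.53 in the sgScramble tumours and 186, 107, 48.8 and 74.3 in the sgNlrc5 tumours. For each of the 3 genes, sgNlrc5 tumour 1 was the highest and sgNlrc5 tumour 3 the lowest of its group, and the groups did not overlap. They rose by 3.36 ± 0.34, 3.36 ± 0.53 and 3.3 ± 0.46 (adjusted p = 4.03e-05, 0.000579 and 0.000262). Trac and Cd3g were among the 17 genes that entered the test through the sgNlrc5 tumours only.

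Cd4, the coreceptor of class II restricted T cells, rose from 5.34 ± 3.3 to 39.2 ± 29 (2.44 ± 0.61, adjusted p = 0.00784), though sgNlrc5 tumour 3, at 9.04, lay within the sgScramble range. Lat, an adaptor of T cell receptor signalling that is also in the TDMa culture table, rose from 66.6 ± 17.4 to 333 ± 31.3, and Cd3d from 6.45 ± 3.43 to 59.1 ± 28.9. The summed normalised counts of the 22 markers were 594, 535, 695 and 576 in the sgScramble tumours and 2677, 1771, 1217 and 1504 in the sgNlrc5 tumours. A large part of the sgScramble sums was Tcf7, a member that the TDMa culture table also lists and that did not pass (-0.08 ± 0.11). Tcf7 had 384, 339, 355 and 286 in the sgScramble tumours and 307, 301, 328 and 346 in the sgNlrc5 tumours. The lowest sgNlrc5 sum, that of tumour 3, was above the highest sgScramble sum.

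Among effector genes of cytotoxic lymphocytes, 11 of 15 tested members were higher and none lower. Of these 15, 6 had a mean of at least 10 in the sgNlrc5 tumours only, 5 of them called, and of the 9 with such a mean in both groups 6 were higher, with a median of 2.17. Gzmb (ENSMUSG00000015437), the killing protease granzyme B, had 28.7, 22, 70.6 and 129 in the sgScramble tumours and 255, 336, 173 and 296 in the sgNlrc5 tumours, and Prf1 (ENSMUSG00000037202), the pore protein perforin, 24.1, 12.4, 54.7 and 77.6 in the sgScramble tumours and 173, 205, 113 and 164 in the sgNlrc5 tumours. The groups did not overlap for either gene, and sgScramble tumour 4 was the highest of its group for both. The rises were 2.36 ± 0.45 and 2.21 ± 0.45 (adjusted p = 0.00182 and 0.00266). Nkg7, a granule membrane protein, rose from 18.1 ± 8.36 to 138 ± 87.1, and Klrc1, which encodes NKG2A, a receptor for the Qa-1 product of H2-T23, from 6.93 ± 3.16 to 43.9 ± 18.4. Ccl5, a chemokine made by effector T cells, rose by 2.42 ± 0.36 and Serpinb9, the granzyme B inhibitor, by 1.01 ± 0.18. Ccl5 and Serpinb9 were also in the TDMa culture table. Ifng, the cytokine interferon gamma, was low and did not pass: 0, 1.91, 5.96 and 14.1 in the sgScramble tumours and 24.1, 13.9, 16.3 and 10.0 in the sgNlrc5 tumours (1.97 ± 0.73, adjusted p = 0.0502). It was called higher in 6 of 16 alternative settings. Gzma, of which 1 sgNlrc5 tumour lay within the sgScramble range, did not pass either (1.54 ± 0.82, adjusted p = 0.155).

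Checkpoint and costimulation genes, receptors and ligands that restrain or support T cell activation, were called higher for 13 of 17 tested members and lower for none. Of these 17, 7 had a mean of at least 10 in the sgNlrc5 tumours only, 6 of them called, and of the 10 with such a mean in both groups 7 were higher, with a median of 1.55. Pdcd1 (ENSMUSG00000026285), which encodes PD-1, had 3.45, 4.77, 4.97 and 10.6 in the sgScramble tumours and 155, 78.3, 42.5 and 56.3 in the sgNlrc5 tumours. Every sgScramble tumour was low and sgNlrc5 tumour 1 was the highest, and the rise was 3.52 ± 0.43 (adjusted p = 0.000121). Pdcd1 was among the 7 with a mean of at least 10 in the sgNlrc5 tumours only. Havcr2, which encodes TIM-3, rose from 31.5 ± 5.24 to 107 ± 13.1, Vsir, which encodes VISTA and is high on myeloid cells, from 76.5 ± 22.5 to 259 ± 9.4, and Entpd1, the ectonucleotidase CD39, from 76 ± 25.4 to 222 ± 21.7. Cd274, which encodes the PD-1 ligand PD-L1, had 253, 248, 408 and 721 in the sgScramble tumours and 1196, 1149.7, 854 and 1248 in the sgNlrc5 tumours (1.58 ± 0.28, adjusted p = 0.00121). Havcr2 and Cd274 were also in the TDMa culture table.

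Other lymphocyte markers were few. Of 3 tested regulatory T cell genes 1 was higher, Ikzf4 (1.58 ± 0.36), while Il2ra and Ikzf2 were at 0.91 ± 0.51 and 0.31 ± 0.34 and did not pass. Foxp3, the defining factor of that lineage, was under the filter. Ikzf4 and Ikzf2 were also in the TDMa culture table, and Il2ra was in neither culture table. Only Prf1 and Gzma of the NK list were tested, and both are shared with T cells. In the B and plasma cell list, the immunoglobulin genes Igkc and Ighm rose from 7.58 ± 3.7 to 46 ± 17.2 and from 31.4 ± 13.9 to 83.9 ± 25, Cd79a did not pass (0.79 ± 0.55), and the B cell markers Ms4a1 and Cd79b were not among tested genes.

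Macrophage and monocyte genes were higher too, with 21 of 23 tested members higher, none lower, and a median of 1.59. Cd68 (ENSMUSG00000018774), a lysosomal protein of macrophages that the TDMa culture table also lists, had 991, 1227, 1148 and 1202 in the sgScramble tumours and 3554, 5375, 4875 and 4426 in the sgNlrc5 tumours. C1qa (ENSMUSG00000036887), a chain of complement C1q made by tissue macrophages, had 662, 338, 407 and 723 in the sgScramble tumours and 2600.1, 1907, 2569.6 and 1727 in the sgNlrc5 tumours, and Adgre1 (ENSMUSG00000004730), the F4/80 antigen, 167, 103, 101 and 204 in the sgScramble tumours and 716, 502, 667 and 557 in the sgNlrc5 tumours. No group overlapped, sgScramble tumours 1 and 4 were the higher pair of their group for C1qa and Adgre1, and the rises were 1.98 ± 0.12, 2.09 ± 0.23 and 2.13 ± 0.22 (adjusted p = 2.88e-06, 5.9e-05 and 4.19e-05). C1qb and C1qc rose by 1.86 ± 0.19 and 1.98 ± 0.18. Nos2, the nitric oxide synthase of activated macrophages, rose from 71.6 ± 53.4 to 443 ± 41.4 (2.85 ± 0.34). Arg1, an arginase of alternatively activated macrophages, had 257, 337, 292 and 691 in the sgScramble tumours and 279, 341, 877 and 542 in the sgNlrc5 tumours and did not pass (0.34 ± 0.35, adjusted p = 0.475). Mrc1 of the same list was called higher (0.66 ± 0.20, adjusted p = 0.0226), with overlap, and Chil3 did not pass (1.11 ± 0.65). A change of macrophage state was not tested. Summed over the list, the counts were 6365, 5576, 5645 and 9306 in the sgScramble tumours and 24539, 20846, 25022 and 18390.0 in the sgNlrc5 tumours. Among the sgScramble tumours the fourth was highest, and among the sgNlrc5 tumours the fourth was lowest, with no overlap between groups.

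Of the complement and Fc receptor genes, 16 of 17 were higher, beside 19.7% of all tested genes, with a median of 1.49. The list shares members with the macrophage list, C1qa, C1qb and C1qc among them, so the 2 counts are not independent. Higher calls were made for 10 of the 11 members in neither culture table, beside 61.5% of all such genes tested, whose median was 1.43. All 6 TDMa-listed members were higher, beside 16.1% of TDMa-listed genes. C4b (ENSMUSG00000073418), a component of the classical complement pathway, had 994, 289, 768 and 1159 in the sgScramble tumours and 4354, 5522, 6206 and 9837 in the sgNlrc5 tumours. It rose by 3.12 ± 0.37 (adjusted p = 0.000103) with no overlap, and sgNlrc5 tumour 4 was highest. Serping1, the C1 inhibitor, rose from 121 ± 62.6 to 609 ± 228.

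MHC class II genes, which antigen-presenting cells express and which CIITA controls, were all higher: 9 of 9 tested members, with a median of 2.67. Of the 9, 7 were in neither culture table, where 61.5% of all tested genes were higher. Cd74 (ENSMUSG00000024610), the invariant chain, had 3306, 727, 1724 and 3573 in the sgScramble tumours and 19663, 11427, 12751 and 18529 in the sgNlrc5 tumours. H2-Ab1 (ENSMUSG00000073421), a class II beta chain, had 1329.5, 381, 999 and 1779 in the sgScramble tumours and 9036, 4895, 4685 and 7064 in the sgNlrc5 tumours. Both were lowest in sgScramble tumour 2 and highest in sgNlrc5 tumour 1, and rose by 2.95 ± 0.41 and 2.67 ± 0.38 (adjusted p = 0.000264 and 0.000337). H2-Eb1 and the peptide exchange gene H2-DMb1 rose by 2.98 ± 0.40 and 1.68 ± 0.20, and Ciita itself from 80.3 ± 55.3 to 272 ± 92.7 (2.03 ± 0.50). The class II sums ran from 2693 to 11073 in the sgScramble tumours and 33759.5 to 58088 in the sgNlrc5 tumours, in the same tumours in which macrophage markers rose, and the part of macrophages in them was not tested.

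Chemokine and chemokine receptor genes were higher for 18 of 24 tested members and lower for none, and for 16 of the 20 with a mean of at least 10 in both groups, whose median was 1.21. Cxcl9 (ENSMUSG00000029417), an interferon gamma induced attractant of CXCR3-positive T cells, had 189.6, 112, 128 and 252 in the sgScramble tumours and 705, 487, 338 and 509 in the sgNlrc5 tumours. The rise was 1.6 ± 0.26 (adjusted p = 0.0007), and sgScramble tumour 4 came closest to the sgNlrc5 tumours. Cxcl16, a ligand of CXCR6, and Ccl4, an attractant of T cells and monocytes, rose by 1.99 ± 0.27 and 2.05 ± 0.34. On the list of NLR genes, the family of Nlrc5, and of other inflammasome genes, 10 of 16 were higher (62.5%), beside 19.7% of all tested genes. So were 7 of the 13 with a mean of at least 10 in both groups, whose median was 1.00. Among them Pycard, the adaptor ASC, rose from 38.6 ± 6.38 to 127 ± 16.4, Aim2, a DNA sensor, from 15.8 ± 5.44 to 56 ± 19, Gsdmd, the pore former of pyroptosis, from 141 ± 27.6 to 300.0 ± 79.1, and the cytokine gene Il18 from 118 ± 23.6 to 236 ± 47.5.

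**Figure D3:**
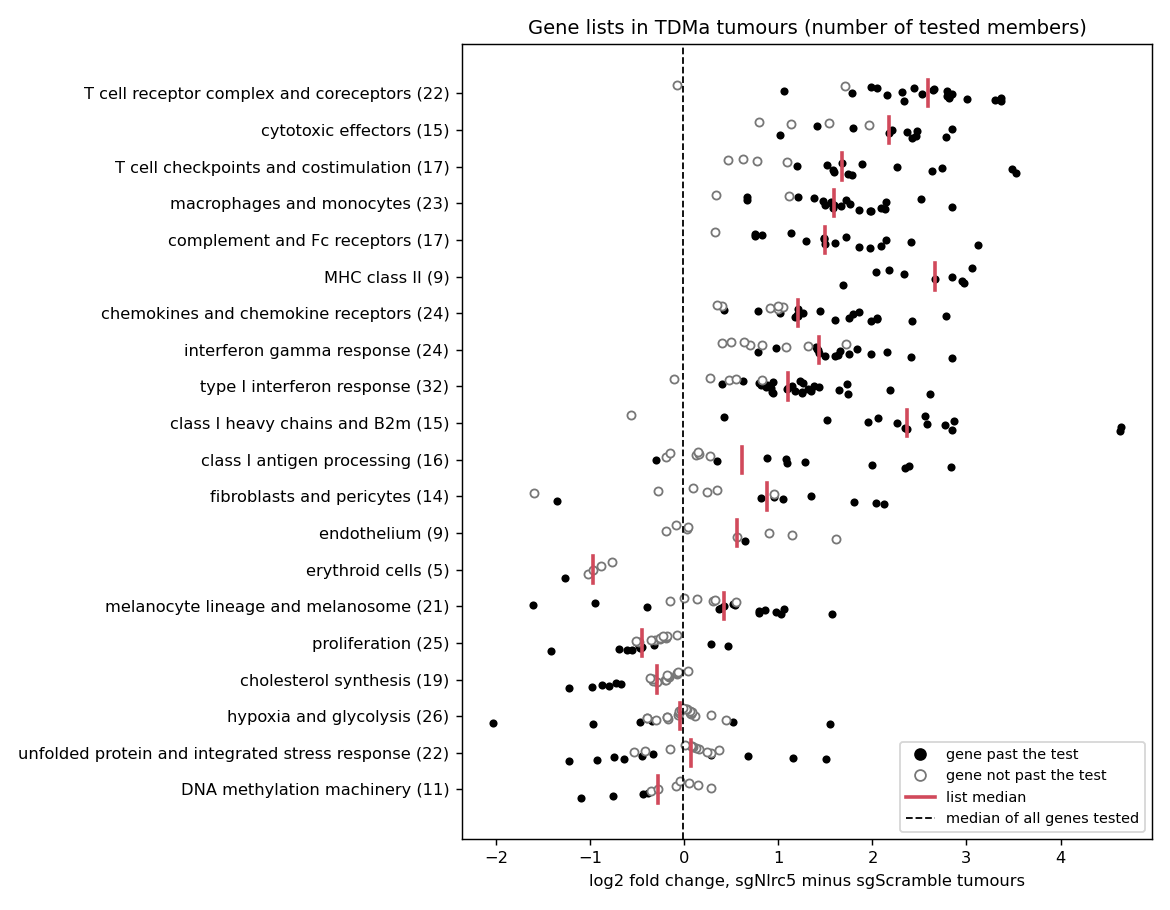
Log2 fold change, sgNlrc5 minus sgScramble (x), of each tested member of 20 gene lists (y, with the number of tested members). Filled points passed the test, open points did not, a red bar is the list median and the dashed line the median of all genes. The immune lists lie to the right, proliferation and cholesterol synthesis to the left.

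Markers of other host cells moved less uniformly. Among dendritic cell genes, Itgax, which macrophages share, rose from 50.3 ± 4.13 to 203 ± 98.4, Fscn1, which the TDMa cells also expressed, fell from 5679.6 ± 431 to 4126 ± 809.9, and Ccr7 and Ccl22 did not pass (1.05 ± 0.43 and 0.35 ± 0.41), while the defining markers Flt3, Xcr1 and Clec9a were under the filter. Of 4 neutrophil genes Csf3r alone was called, rising from 28.5 ± 23 to 88.1 ± 24.5, and S100a8 was under the filter. The neutrophil calls moved to 4 of 4 with array weights and to 3 of 4 without sgScramble replicate 4, the tumour with the highest Il1b (12.6, 16.2, 24.9 and 88.2 in sgScramble tumours 1 to 4). No mast cell marker was listed.

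Endothelial genes gave 1 call of 9, Eng, the endoglin gene, which the cultured TDMa cells also expressed, rising from 2646 ± 311 to 4119 ± 435. The vessel markers Pecam1, Cdh5, Kdr and Flt1 did not pass (-0.2 ± 0.44, 0.9 ± 0.75, 1.15 ± 0.71 and 1.62 ± 0.60), and the list had 3 calls without sgScramble replicate 2, the sgScramble tumour with the highest Kdr and Flt1. Of 14 fibroblast and pericyte genes 7 were higher (50%) and 1 lower (7.14%), beside 19.7% and 19.7% of all tested genes, with a median of 0.88. The highest of these were Thy1, which T cells also express (43.6 ± 6.49 to 200.2 ± 66.7), Mmp2, a gelatinase (185 ± 56 to 799 ± 348), and Postn, the matrix protein periostin (80.1 ± 23.5 to 285 ± 93.1), while Pdgfra, a growth factor receptor, fell from 72.2 ± 13.3 to 27.7 ± 5.35. Thy1 was the 1 higher gene of the 5 in neither culture table. Of the 9 TDMa-listed genes, Mmp2, Postn and Pdgfra among them, 6 were higher and 1 lower. The structural collagen Col3a1 and the proteoglycan Dcn did not pass (0.95 ± 0.38 and 0.35 ± 0.44). The 7 became 4 without the intensity trend, without sgNlrc5 replicate 3 and without sgScramble replicate 1.

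Red cell genes leaned lower, with a median of -0.98 over 5 tested members, but only Alas2, of erythroid haem synthesis, was called (36.8, 35.3, 21.9 and 97 in the sgScramble tumours and 13, 11.8, 27.1 and 17.1 in the sgNlrc5 tumours; -1.27 ± 0.43, adjusted p = 0.0333). Hbb-bs, a beta globin, had 614, 597, 447 and 2046 in the sgScramble tumours and 360.0, 328, 634 and 261 in the sgNlrc5 tumours. Most of that spread was between sgScramble tumour 4 and the rest, and the groups overlapped (-1.02 ± 0.40, adjusted p = 0.0616). The call of Alas2 was lost in 9 of 17 alternative settings, and 4 of 5 genes were called without sgNlrc5 replicate 3. Muscle, keratinocyte and adipocyte lists had 1 to 4 tested members each: Des and Atp2a1 rose by 1.39 ± 0.22 and 2.69 ± 0.68, Sfn by 1.28 ± 0.44 and Pparg by 1.27 ± 0.33, Fabp4, Acta1 and Mylpf did not pass, and the call of Sfn was lost in 7 of 17 settings. Des, Mylpf and Sfn were also in the TDMa culture table.

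**Figure D4:**
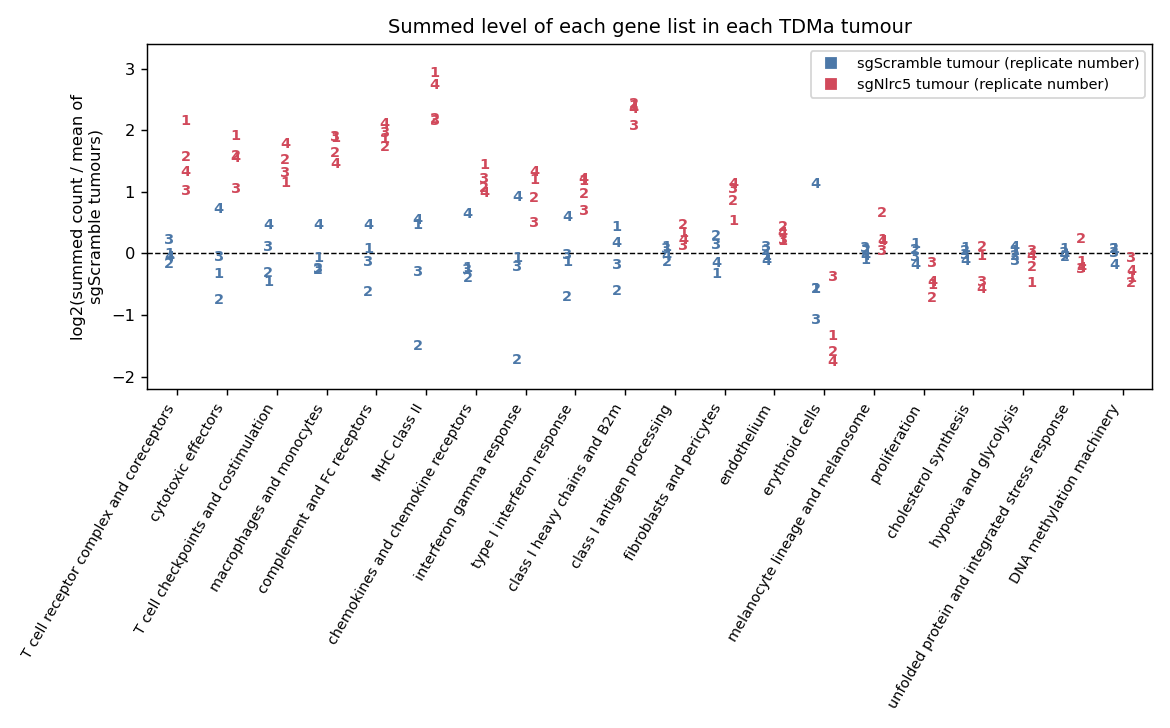
Summed normalised count of each gene list in each tumour, as log2 of its ratio to the mean of the 4 sgScramble tumours (y), with the replicate number as the symbol. sgScramble tumour 4 is high for erythroid and interferon gamma genes, sgScramble tumour 2 is low for class II and interferon gamma genes, and sgNlrc5 tumour 3 lies among the sgScramble tumours for proliferation.

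The largest rises among genes in neither culture table, outside the genes given above, were of mixed kinds. They were chosen among called genes whose groups did not overlap. Scarf1 (ENSMUSG00000038188), a scavenger receptor that takes up modified lipoproteins and apoptotic cells, had 125, 67.8, 116 and 104 in the sgScramble tumours and 1246, 1189, 1274 and 1395 in the sgNlrc5 tumours. Loxl1 (ENSMUSG00000032334), a lysyl oxidase that crosslinks elastin, had 9.19, 10.5, 11.9 and 9.7 in the sgScramble tumours and 110.3, 84.7, 156 and 159.7 in the sgNlrc5 tumours. Hcar1 (ENSMUSG00000049241), the lactate receptor, had 28.7, 5.73, 12.9 and 11.5 in the sgScramble tumours and 107, 145, 259 and 401 in the sgNlrc5 tumours. Of the 3, Scarf1 varied least, and their rises were 3.65 ± 0.17, 3.46 ± 0.26 and 3.88 ± 0.47 (adjusted p = 3e-07, 1.17e-05 and 0.000111). Cox8b, a muscle and brown fat isoform of a cytochrome oxidase subunit, rose from 4.33 ± 3.24 to 85.5 ± 15.9, Arpp21, a cyclic AMP regulated phosphoprotein, from 5.56 ± 3.88 to 65.8 ± 2.45, and the olfactory receptor gene Olfr99 from 3.6 ± 2.06 to 60.7 ± 21.7. Cox8b, Arpp21 and Olfr99 entered the test through the sgNlrc5 tumours only. Only 1 of the 15 lower genes met the rule for naming, Loxl2 (ENSMUSG00000034205), another lysyl oxidase, with 56.3, 70.7, 120.3 and 56.5 in the sgScramble tumours and 14, 12.9, 31.6 and 28.1 in the sgNlrc5 tumours. It fell by 1.79 ± 0.35 (adjusted p = 0.00197), opposite to Loxl1.

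Interferon-response genes were mostly higher. Of 32 tested type I interferon response genes, 29 of them in the TDMa culture table, 27 were higher and none lower, with a median of 1.10, and of 24 interferon gamma response genes 16 were higher and none lower, with a median of 1.43. The shares higher were 84.4% and 66.7%, beside 19.7% of all tested genes and 16.1% of TDMa-listed genes. Oas2 (ENSMUSG00000032690), a sensor of double-stranded RNA, had 132, 69.7, 221 and 179.9 in the sgScramble tumours and 1087, 893, 603 and 894 in the sgNlrc5 tumours. Within the sgScramble group tumour 2 was lowest, the groups did not overlap, and the rise was 2.61 ± 0.30 (adjusted p = 8.08e-05). Xaf1 and Ddx58, the RIG-I gene, rose by 1.25 ± 0.19 and 0.94 ± 0.14, and Icam1, an adhesion molecule, by 1.5 ± 0.32. The summed counts of the interferon gamma list were 21863, 6928, 19756 and 43819.5 in the sgScramble tumours and 52916, 42887, 32647 and 57772 in the sgNlrc5 tumours. They overlapped between groups, as sgScramble tumour 4 lay among the sgNlrc5 tumours, and 22 of 24 genes were called without that tumour. Without the intensity trend 10 were called.

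Of 18 interferon, receptor and JAK-STAT genes 9 were higher (50%) and 1 lower (5.56%), beside 19.7% and 19.7% of all tested genes. Their median was 0.52. The receptor subunit genes Ifnar2 (571, 561, 708 and 578 in the sgScramble tumours and 1110.0, 1405, 989 and 1201 in the sgNlrc5 tumours) and Ifngr2 (888, 844, 899 and 871 in the sgScramble tumours and 1439, 1753, 1294 and 1514 in the sgNlrc5 tumours) did not overlap between groups and rose by 0.95 ± 0.12 and 0.77 ± 0.10. Irf8, a factor of myeloid cells, rose from 138 ± 59.1 to 420.1 ± 62.3. Ptpn2 (ENSMUSG00000024539), a phosphatase that removes phosphate from JAK1, had 1016, 900.4, 849 and 952 in the sgScramble tumours and 492, 482, 486 and 510.4 in the sgNlrc5 tumours. It was the member that fell, by 0.91 ± 0.08 (adjusted p = 2.64e-05), with little spread in either group. The letters GAAA, any 2 bases and GAAA, a core of the interferon-stimulated response element, were in the promoters of 13 of 22 type I genes and 11 of 15 interferon gamma genes with an entry, both strands searched, and in 3.44% of all promoters in the table. They were in 4.96% of promoters of genes called higher, 3.16% of those called lower and 2.67% of those not called.

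Melanocyte lineage and melanosome genes leaned higher, with 12 of 21 tested members higher (57.1%) and 3 lower (14.3%), beside 19.7% and 19.7% of all tested genes. Among the 20 with a mean of at least 10 in both groups, 12 were higher and 2 lower, with a median of 0.47. Oca2 (ENSMUSG00000030450), a melanosome chloride channel, had 2017, 2502, 2458 and 2308 in the sgScramble tumours and 6935, 10502, 4689.9 and 6465 in the sgNlrc5 tumours. Trpm1 (ENSMUSG00000030523), a cation channel under control of MITF, had 5359.5, 6638, 5735 and 5466 in the sgScramble tumours and 12508, 15128, 9175 and 10937 in the sgNlrc5 tumours. For both genes sgNlrc5 tumour 2 was highest, no groups overlapped, and the rises were 1.57 ± 0.19 and 1.02 ± 0.14 (adjusted p = 0.000116 and 0.000261). Mc1r, the melanocortin receptor, and Gpr143, a melanosome receptor, rose by 0.79 ± 0.12 and 0.97 ± 0.16, and Mlana, which encodes the antigen MART-1, from 8766 ± 839.8 to 12836 ± 2548. Tyr, the tyrosinase gene, went the other way, by -0.95 ± 0.34 (adjusted p = 0.0439), with 3601, 5161, 5272 and 4669.6 in the sgScramble tumours and 1664, 5910.2, 1466 and 2275 in the sgNlrc5 tumours, so sgNlrc5 tumour 2 was above every sgScramble tumour and the call was lost in 8 of 18 alternative settings. Mitf and Sox10, the lineage factors, did not pass, with fold changes of -0.01 ± 0.10 and -0.15 ± 0.12. The 3 lower members became 1 when sgNlrc5 replicate 3, sgScramble replicate 2 or sgScramble replicate 4 was left out. The sums of the list were 717824 to 816994 in the sgScramble tumours and 798626 to 1214510.0 in the sgNlrc5 tumours, so they overlapped.

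Proliferation genes leaned lower, with 12 of 25 tested members lower (48%, beside 21.3% of TDMa-listed genes and 33.7% of those at 1000 or more in culture), 2 higher and a median of -0.45. Mki67 (ENSMUSG00000031004), the Ki-67 antigen of cycling cells, had 3928, 4426, 4799 and 3279 in the sgScramble tumours and 2637, 1624, 987 and 1272 in the sgNlrc5 tumours. Top2a (ENSMUSG00000020914), the topoisomerase of replicating DNA, had 8223, 7843, 6917 and 6513 in the sgScramble tumours and 4592, 4304, 6135 and 5088 in the sgNlrc5 tumours. The groups did not overlap for either gene, Mki67 was lowest and Top2a highest in sgNlrc5 tumour 3 among its group, and they fell by 1.42 ± 0.24 and 0.56 ± 0.12 (adjusted p = 0.000887 and 0.00362). Bub1, of the mitotic checkpoint, and Mcm2, of the replicative helicase, fell by 0.61 ± 0.13 and 0.70 ± 0.16. This count rests on single tumours: it was 21 of 25 without sgNlrc5 replicate 3 and 8 without sgNlrc5 replicate 2. The sums were 50943, 47339.7, 43658 and 40212 in the sgScramble tumours and 31846, 27707, 40729 and 33039 in the sgNlrc5 tumours. These overlapped, since sgNlrc5 tumour 3 was above sgScramble tumour 4. Macrophage markers rose in the same tumours, and their part was not tested.

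Of 19 cholesterol synthesis genes, all of them TDMa-listed, 6 were lower and none higher, with a median of -0.30. The share lower was 31.6%, beside 21.3% of TDMa-listed genes and 33.7% of those at 1000 or more in culture, so the count of lower genes was near that background. Pmvk (ENSMUSG00000027952), phosphomevalonate kinase, had 699, 731, 516 and 599.8 in the sgScramble tumours and 312, 291, 280.3 and 206 in the sgNlrc5 tumours. It fell by 1.23 ± 0.15 (adjusted p = 0.000116) without overlap. Idi1, Lss and Fdft1, enzymes downstream of it, fell by 0.98 ± 0.13, 0.81 ± 0.14 and 0.88 ± 0.16, the last of them lowest in sgNlrc5 tumours 3 and 4 (1249, 1166, 852 and 698 in sgNlrc5 tumours 1 to 4). With array weights 12 of 19 were called lower.

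In the unfolded protein and integrated stress response list, 6 of 22 were lower (27.3%) and 4 higher (18.2%), with a median of 0.07, near the 21.3% and 16.1% of TDMa-listed genes. Among the lower ones were amino acid synthesis genes that ATF4 controls. Asns (ENSMUSG00000029752), asparagine synthetase, had 1255, 1277, 952 and 1368 in the sgScramble tumours and 498, 461, 543 and 561 in the sgNlrc5 tumours, and Phgdh (ENSMUSG00000053398), of serine synthesis, 2657, 2206, 1925 and 2336 in the sgScramble tumours and 1152, 1008, 1489 and 1142 in the sgNlrc5 tumours. Their groups did not overlap, and they fell by 1.22 ± 0.12 and 0.93 ± 0.13 (adjusted p = 3.24e-05 and 0.00024), and Psat1, the next enzyme after Phgdh, by 0.64 ± 0.11. Atf3, a stress-induced factor that was in neither culture table, rose from 108 ± 57.7 to 286 ± 40.4.

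Hypoxia and glycolysis genes gave 2 higher (7.69%) and 4 lower (15.4%) of 26, both under the 16.1% and 21.3% of TDMa-listed genes, with a median of -0.04, which is near that of all genes. Bnip3l (ENSMUSG00000022051), a mitophagy receptor, had 4208, 3952, 4020.3 and 4457 in the sgScramble tumours and 1860.1, 2086, 2196 and 2322 in the sgNlrc5 tumours, and fell by 0.98 ± 0.09 (adjusted p = 2.26e-05) without overlap. Car12, a carbonic anhydrase, fell from 142 ± 28.2 to 37.9 ± 22.5, and Slc16a3, a lactate exporter, and P4ha1, of collagen hydroxylation, rose by 1.55 ± 0.26 and 0.52 ± 0.11. Without sgNlrc5 replicate 1, 4 members were higher.

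Genes of DNA methylation and demethylation were lower for 4 of 11 (36.4%, beside 21.3% of TDMa-listed genes and 33.7% of those at 1000 or more in culture), with none higher and a median of -0.29. Tet1 (ENSMUSG00000047146), a dioxygenase that oxidises methylcytosine, had 426, 452, 501 and 435 in the sgScramble tumours and 197, 207, 227 and 213 in the sgNlrc5 tumours, and Tet3 (ENSMUSG00000034832) of the same family 1173, 1455, 1520.0 and 1228 in the sgScramble tumours and 907, 716, 773 and 766 in the sgNlrc5 tumours. Neither gene had overlapping groups, and they fell by 1.10 ± 0.10 and 0.76 ± 0.11 (adjusted p = 2.6e-05 and 0.000301). Mbd2, a reader of methylated DNA, and Tdg, the glycosylase that completes demethylation, fell by 0.44 ± 0.07 and 0.39 ± 0.09. Of 5 germline genes known to be silenced by methylation, Tex101 and Tuba3b, which entered the test through the sgNlrc5 tumours only, rose from 7.11 ± 7.05 to 80.0 ± 9.93 and from 1.86 ± 1.44 to 27.5 ± 14.4, Rhox5 fell from 1024 ± 953 to 269 ± 99, with groups that overlapped, and Xlr3a did not pass (-0.12 ± 0.13). The call of Rhox5, which was highest in sgScramble tumour 1, was lost in 4 of 18 settings.

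Genes of the invasive melanoma state were higher for 6 of 13 (46.2%) and lower for 1 (7.69%), beside 19.7% and 19.7% of all tested genes. Their median was 0.31. Axl (ENSMUSG00000002602), a receptor tyrosine kinase that macrophages also express, had 1563, 796, 1307 and 1485 in the sgScramble tumours and 5469, 5357, 4086 and 5731 in the sgNlrc5 tumours. It rose by 2.04 ± 0.19 (adjusted p = 2.6e-05) without overlap, Tgfb1 by 1.37 ± 0.16, Tgfbi by 1.82 ± 0.30 and Jun, also an immediate early gene, by 1.01 ± 0.18. The immediate early list had 5 higher (35.7%) and 1 lower (7.14%) of 14, with Egr2 up by 1.08 ± 0.33 and Myc down by 0.36 ± 0.10. The higher count fell to 2 without sgNlrc5 replicate 4, sgScramble replicate 1 or sgScramble replicate 3. The call of Egr2 was lost in 6 of 17 settings. The p53 target list had 3 higher (18.8%) and 2 lower (12.5%) of 16, no more than the 19.7% and 19.7% of all tested genes, among them Phlda3 (0.42 ± 0.09), Pmaip1 (1.87 ± 0.43) and Btg2 (0.51 ± 0.16, lost in 3 of 18 settings) higher and the cyclin gene Ccng1 (-0.42 ± 0.09) lower. None of 13 mitochondrially encoded genes passed, with a median of 0.23, and mt-Co3 had the smallest p (0.84 ± 0.34, adjusted p = 0.0656). Of 3 Schwann cell genes, Mbp, which the TDMa culture table lists, fell by 0.40 ± 0.12, with overlap and a call lost in 4 of 18 settings, and Prx and Ncam1 did not pass (-0.15 ± 0.22 and 0.13 ± 0.29).

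Among TDMa-listed genes outside the lists, large falls and rises were both found. Those given here were chosen for a large change and groups that did not overlap. Npnt (ENSMUSG00000040998), the matrix protein nephronectin, had normalised counts of 161, 177, 165 and 187 in the sgScramble tumours and 2.01, 3.22, 3.62 and 12.1 in the sgNlrc5 tumours. Peg13 (ENSMUSG00000106847), a paternally expressed noncoding RNA, had 159.7, 153, 199.8 and 143 in the sgScramble tumours and 4.01, 5.36, 9.04 and 9.04 in the sgNlrc5 tumours. Cer1 (ENSMUSG00000038192), a secreted antagonist of Nodal, BMP and WNT ligands, had 165, 189, 231 and 173 in the sgScramble tumours and 10.0, 24.7, 19.9 and 21.1 in the sgNlrc5 tumours. Each was present in every sgScramble tumour at a narrow range and low in every sgNlrc5 tumour, with log2 fold changes of -5.04 ± 0.39, -4.44 ± 0.28 and -3.31 ± 0.26 (adjusted p = 1.31e-05, 2.88e-06 and 1.31e-05). The protocadherin genes Pcdhb2 and Pcdhb10, which lie in 1 cluster, fell by 3.51 ± 0.47 and 3.04 ± 0.36. Pak3, a neuronal kinase, fell from 328 ± 116 to 35.3 ± 6.71, Fez1, an adaptor of axonal transport, from 418 ± 162 to 47.9 ± 5.21, and Igfn1, Fndc3c1 and the muscle protein gene Nebl by 3.36 ± 0.33, 3.21 ± 0.44 and 2.98 ± 0.41. Npnt, Peg13, Pcdhb2 and Nebl had a mean of at least 10 in the sgScramble tumours only.

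Of the rises, Spp1 (ENSMUSG00000029304), the secreted phosphoprotein osteopontin, which macrophages and melanoma cells make, had 211, 406, 511 and 475 in the sgScramble tumours and 3938, 4041, 3045 and 3478 in the sgNlrc5 tumours. Hsd11b1 (ENSMUSG00000016194), which regenerates active glucocorticoid, had 26.4, 16.2, 23.9 and 34.4 in the sgScramble tumours and 229.6, 336, 846 and 640.0 in the sgNlrc5 tumours. Abcc2 (ENSMUSG00000025194), an export pump, had 18.4, 18.1, 11.9 and 7.94 in the sgScramble tumours and 158, 272, 192 and 284 in the sgNlrc5 tumours. The groups of all 3 were far apart, Hsd11b1 varied most within the sgNlrc5 group, and the rises were 3.24 ± 0.23, 4.16 ± 0.36 and 3.94 ± 0.29 (adjusted p = 7.1e-06, 2.05e-05 and 1.17e-05). Timp4, a metalloproteinase inhibitor, Sgpp2, a sphingosine phosphate phosphatase, and the noncoding RNA Fendrr rose by 3.45 ± 0.70, 3.22 ± 0.29 and 3.11 ± 0.27. Fendrr entered the test through the sgNlrc5 tumours only.

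**Figure D5:**
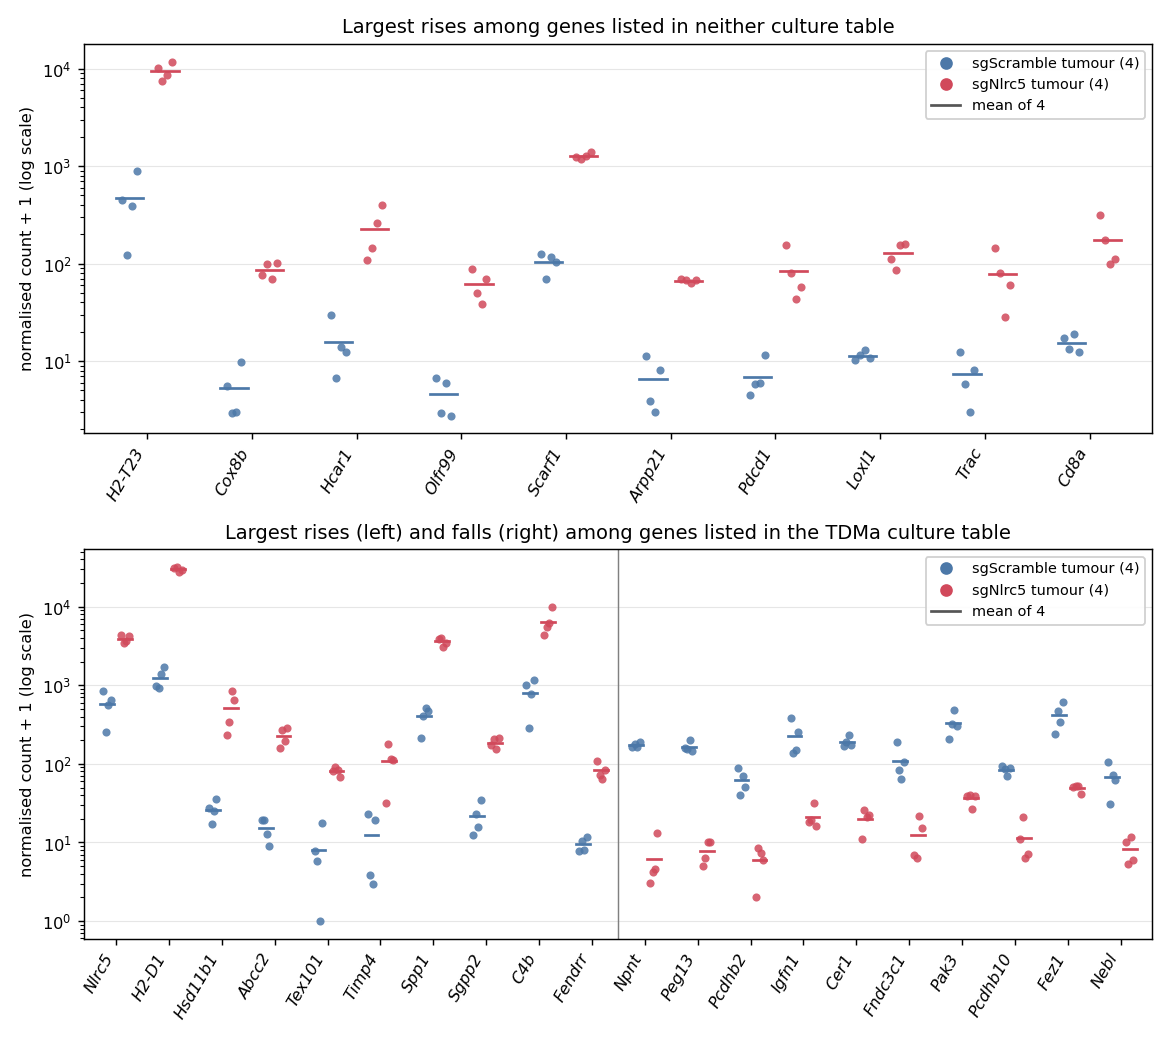
Normalised count + 1 (log scale) of the genes with the largest called changes, in genes listed in neither culture table (upper, rises) and in the TDMa culture table (lower, rises on the left and falls on the right), with a point per tumour and a bar at the group mean. No gene shown has overlapping groups, since the rule for choosing them required that.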

How the data were processed

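RNA of 8 B16F10-TDMa tumours had been sequenced from libraries made with a kit that keeps strand, per the labels' protocols. Per the file headers, the authors deposited log2(normalised count + 1) per gene and tumour. STAR 2.7.10a, DESeq2 1.36.0, FastQC 0.12.0, mm39 and GRCm39 appear in the submitters' processing notes, with no role given. The annotation, counting tool and strand setting are not given in the sources used here, so overlapping or antisense genes are uncertain.

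Back-transformed to counts, every low value was a whole multiple of 1 read per tumour, up to 2000 multiples and within 0.1, which gave the reads. Genes with a mean of at least 10 were fitted with limma 3.58.1 (R 4.3.3) on the deposited log2 scale, with an intensity trend, two-sided, without covariates, and with Benjamini-Hochberg adjustment over all 13385 genes at 0.05. The fit was tested on simulated data. Alternatives varied the filter, pseudocount, scaling, trend and weights, used voom on the recovered reads, added a replicate block, or left out each tumour.

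The comparison, the gene lists and the rule for named genes were chosen with earlier results of these data known. That rule took Nlrc5, tested class I genes, up to 10 called genes per direction and listing group with the largest change, no overlap and a mean of at least 50 in 1 group, and up to 4 genes per list with the smallest p. A further 22 genes were named after their values were seen: Cd4, Gzmb, Ifng, Cd274, Arg1, Ciita, Pecam1, Cdh5, Col3a1, Dcn, Mlana, Tyr, Mitf, Sox10 and the 8 promoter matches outside the class I list. Lck and Cd8b1, given by name alone, and Tcf7, Mrc1 and Chil3, given with values, were also chosen so. They are left out of the counts of named genes in the closing sections. Some genes that the rule names are not reported here. Promoters of RefSeq (GRCm38.p6) were matched by symbol for 10069 of 13385 genes, and coordinates are of that build alone.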

Additional observations from a re-analysis of the deposited data

Results flagged for a closer look

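Among the genes given above, 348 groups of 4 tumours were searched for a tumour that stood far from the rest of its group, and 12 were found (3.45%, where chance gives about 5%, or 1 in 20). Dixon's criterion at 95% for 4 samples, which sets the gap to the nearest tumour against the range of the group, was used on the log2 scale. In sgScramble tumour 4, Vsir was at 110.3 normalised counts beside 64.4 to 65.9 in the rest of the group, and Itgax at 56.5 beside 47.7 to 48.7. In sgScramble tumour 1, Nfe2l1 was at 3837 beside 4467 to 4583, Ikzf4 at 4.6 beside 11.9 to 13.4, and Mc1r at 2355 beside 1872 to 1919. Ifnar2 was at 708 in sgScramble tumour 3 beside 561 to 578. In sgNlrc5 tumour 3, Havcr2 was at 87.7 beside 112.5 to 115, Pak3 at 25.3 beside 38.1 to 39.7, and Tdg at 1019 beside 919 to 930.3. In sgNlrc5 tumour 1, Cxcl16 was at 250.7 beside 163.7 to 168, and Eng at 3469 beside 4308 to 4364. Ddx58 was at 1591 in sgNlrc5 tumour 4 beside 1208 to 1259.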

How the results depend on the processing

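Each result was recomputed under 18 alternative settings, 8 of which left out 1 tumour. Of the counts over all genes or over a listing group, 157 of 162 values were within 1.5 times the reported one. The exceptions were in genes listed in neither culture table: at a mean of at least 50, 268 were called, 266 higher and 2 lower, since fewer genes were tested, and the lower count was 24 with no filter and 24 with quantile normalisation. Leaving out 1 tumour gave 4327 to 5366 calls in all, 2180 to 2646 higher and 2076 to 2720 lower. Genes in neither culture table gave 502 to 631 calls, 489 to 620 higher and 10 to 18 lower, and TDMa-listed genes 3701 to 4695, 1606 to 2004 higher and 2054 to 2691 lower. Nlrc5 ranged from 2.53 to 3.10. Replicate numbers were shared by the guides. Deviations of same-numbered tumours had correlations of -0.21, 0.11, -0.18 and -0.017, and those of differently numbered tumours reached 0.27. These few values show no pairing by number but cannot exclude one. With a replicate block 4533 genes were called, 573 in neither culture table and 3864 TDMa-listed, and Nlrc5 was at 2.88.

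Of 152 genes given above or named by the rule that were called, 141 were called in every setting in which they were tested, and calls were lost for H2-M2, Sfn, Alas2, Mbp, Btg2, Egr2, Rhox5, Tecpr1, Hspa14, Ghitm and Tyr. Of 34 such genes that were not called, 16 were called in 1 to 6 settings: Ifng in 6, Flt1 and Egfl7 in 5, Il1b, Cxcl2, Fabp4, Hbb-bs and mt-Co3 in 3, Cd1d1, Ccr7, Mmp8, Hba-a2 and Col3a1 in 2, and Kdr, Mylpf and Hba-a1 in 1. Log2 fold changes that changed sign belonged to genes that were not called: Ikzf2 (-0.0858 with quantile normalisation), Ccl22 (-0.0992 with quantile normalisation, -0.118 with array weights), mt-Co2 (-0.0925 with array weights), Pecam1 (0.0634 with array weights) and Mitf (0.0423 with size factors over TDMa-listed genes). With 1 tumour left out, the ranges that spanned 0 were -0.0019 to 0.581 for Ikzf2, -0.18 to 0.324 for Ncam1, -0.624 to 0.109 for Pecam1, -0.0281 to 0.719 for Dcn and -0.0572 to 0.0654 for Mitf. The cause was not tested. List medians that spanned 0 over the settings were those of dendritic cell (-0.14 to 0.39), hypoxia (-0.08 to 0.06), stress response (-0.05 to 0.12), immediate early (-0.14 to 0.19), mitochondrially encoded (-0.15 to 0.52) and germline genes (-0.83 to 0.0035). Of 1296 counts over lists, 106 moved by over 1.5 times. Lists of low genes lost calls at a mean of at least 50, where fewer members were tested: 4 T cell genes, 5 cytotoxic genes, 7 checkpoint genes and 5 NLR genes were then called higher. Depth limits low genes, as a listed gene could rest on 40 reads over 8 tumours.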
